A study of Drosophila melanogaster with 19 samples.

Results

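The 10 heat shock genes Hsp67Bc, Hsp22, Hsp26, Hsp23, Hsp27, Hsp68, Hsp83, Hsp70Aa, Hsp70Ba and Hsp70Bc were examined among 17807 annotated fly genes, of which 13946 are protein-coding. A peak was counted for a gene when it touched the gene's span in dm6 (release 6 of the fly assembly), extended by 1 kb to each side, by at least 1 bp. The genes were chosen by name. They fall into 5 genes of the small Hsp cluster, 2 genes with a sequence of their own (Hsp68 and Hsp83) and 3 of the nearly identical Hsp70 copies.

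S2-DRSC, which the labels write as S2-DSRC, is a hemocyte-like line from Drosophila melanogaster embryos. Its nuclei were incubated with an adenine methyltransferase for 20 min at 37 °C. Short fragments carrying methylated adenine (m6A), which mark DNA the enzyme could reach, were then recovered with an antibody and sequenced (AdMTase-seq). Of the 17 treated libraries, 8 came from Hia5 (0.6, 2, 6, 20, 60 and 200 U), 3 each from EcoGII and Btr192IV (0.6, 2 and 6 U), 2 from EcoGI (0.6 and 2 U) and 1 from Hin1523 (2 U). They were set beside 1 antibody library from untreated cells and 1 library of input DNA. All 19 libraries came from the same cell line, grown at room temperature, and the labels name no heat shock of the cells. The incubation at 37 °C is given for all 17 treated libraries, while the labels of the untreated and input libraries give neither time nor temperature. An effect of that incubation on the heat shock genes was not tested, and it cannot be told apart from that of the enzyme. Only Hia5 at 2 U and at 6 U had 2 libraries, and nothing states that these came from separate cultures. The p-values thus cover only the spread of these libraries. That spread may be technical and, because doses were pooled in the tests, includes differences of dose. Units of different enzymes may not be equal in activity.

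Heat shock genes encode chaperones that keep proteins from aggregating or refold them. In stressed fly cells the heat shock factor Hsf binds their promoters and drives strong transcription. Without stress, the Hsp70 promoters of fly cells are known for a paused RNA polymerase II and for open chromatin kept by GAGA factor, and Hsp26 is likewise a classical example of a promoter that is open before heat shock. These statements are background and were not measured here.

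The treated libraries held between 772 and 13395 peaks, with a median of 3692, and the untreated library and the input held 1974 and 32. The share of protein-coding genes with a peak in the 1 kb window ran from 3.16% (Hia5 60 U) to 38.7% (Hia5 0.6 U) over the treated libraries. The untreated library had 5.74% and the input DNA 0.0430%. The sources used here give no sequencing totals, so the depth behind a missing peak is unknown, and a missing peak says only that the authors' list holds none. Of 12 hemocyte markers, 10 had a peak in a treated library, where 56.2% of all protein-coding genes had one. Among them lz did so in 17 of 17 and zfh1, srp and ush in 16, while Hml had 1 and the phagocytosis receptor genes NimC1 and eater had none. The untreated library had a peak at 4 of the 12, srp, ush, Col4a1 and Sr-CI, where it had one at 5.74% of all protein-coding genes. Peaks were also present at all 3 neuronal, 2 of 3 muscle and 1 of 2 matched germline markers. Some of these had counts near those of the hemocyte markers, with Mef2 in 15 treated libraries, elav in 14 and vas in 12. Of the others, brp had a peak in 7, Act57B in 3 and nSyb in 1, while Mhc and bam had none. The untreated library had a peak at 2 of the 3 neuronal markers, brp and nSyb, and at no muscle or matched germline marker.

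Of the 10 heat shock genes, 4 had a peak in at least 1 treated library, where 56.2% of all protein-coding genes did. The other 6 had none, against 43.8% of all protein-coding genes. Hsp70Ba stood alone among them, with a peak in 15 of 17 treated libraries, a count of at least 15 being reached by 3.76% of protein-coding genes. Hsp68 and Hsp83 had a peak in 2 treated libraries each, where 45.4% of protein-coding genes had at least 2, and Hsp70Bc had a peak in 1. The median over the 10 genes was 0 treated libraries, and over all protein-coding genes it was 1. Neither control had a peak at any of the 10 genes, where 5.74% (untreated) and 0.0430% (input) of all protein-coding genes had one. A longer gene has a longer window, and the shares of all protein-coding genes, here and below, were not matched to gene length. The 10 genes are 884 bp (Hsp23) to 4091 bp (Hsp83) long.

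**Figure D1:**
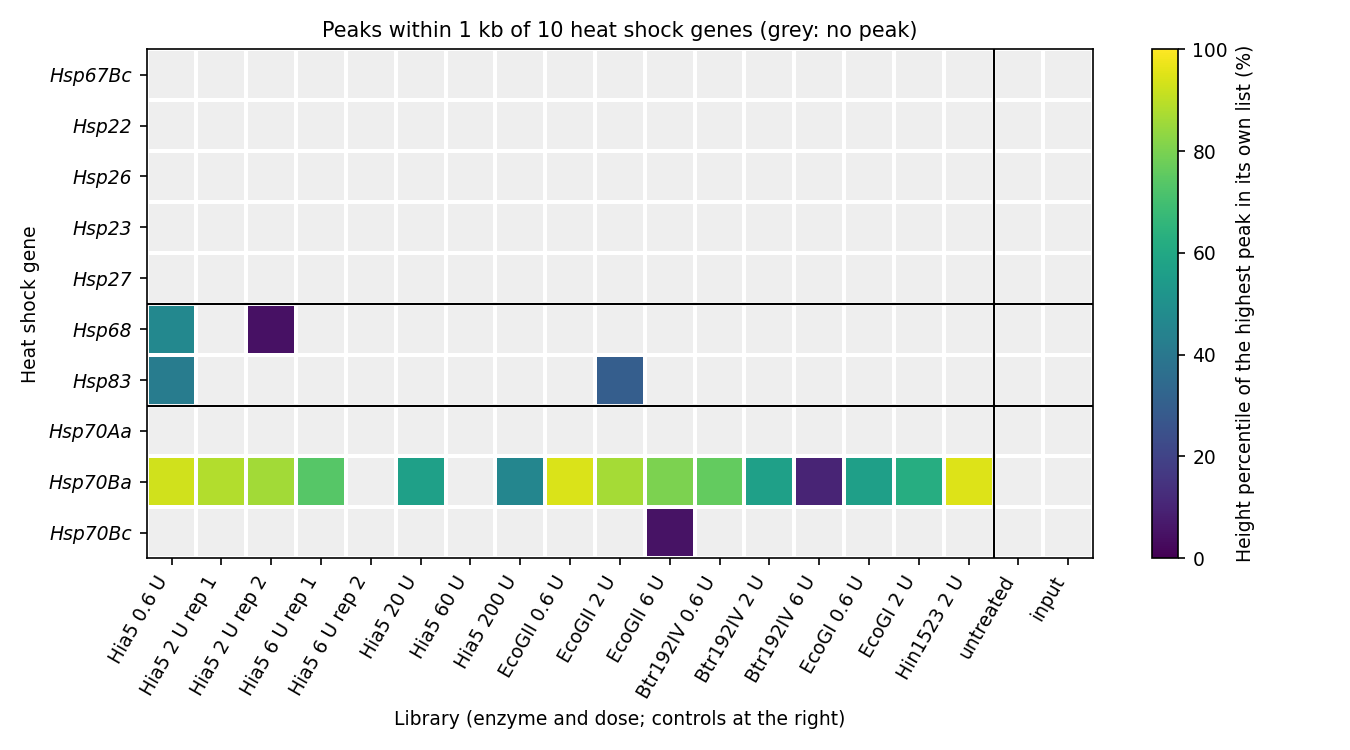
Each cell gives, for 1 heat shock gene (rows) and 1 library (columns), the height percentile of its highest peak within 1 kb, which is the percentage of peaks in the same list that are as high or lower; grey cells hold no peak. Hsp70Ba has a peak in 15 of 17 treated libraries, 3 other genes have one in 1 or 2 libraries, and the 2 control columns are empty.

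By library, Hia5 0.6 U had a peak at 3 of the 10 genes, where 38.7% of protein-coding genes had one. EcoGII at 2 U and at 6 U had peaks at 2 genes each (36.4% and 37.8% of protein-coding genes), and so did replicate 2 of Hia5 2 U (27.5%). A further 11 libraries had a peak at 1 of the genes, which was Hsp70Ba each time. The share of protein-coding genes with a peak was 26.5% in replicate 1 of Hia5 2 U, 11.5% in replicate 1 of Hia5 6 U and 9.01% in Hia5 20 U, with Hia5 200 U between these last 2. It was 32.7% in EcoGII 0.6 U and 27.4% in Hin1523 2 U. For the Btr192IV doses, low to high, the shares were 18.2%, 15.1% and 6.87%, and for those of EcoGI they were 15.1% and 14.5%. Replicate 2 of Hia5 6 U (10.1%) and Hia5 60 U (3.16%) had a peak at none of the 10. Their lists held 2132 and 772 peaks, while the list of Btr192IV 6 U, with 1425, did have a peak at Hsp70Ba.

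**Figure D2:**
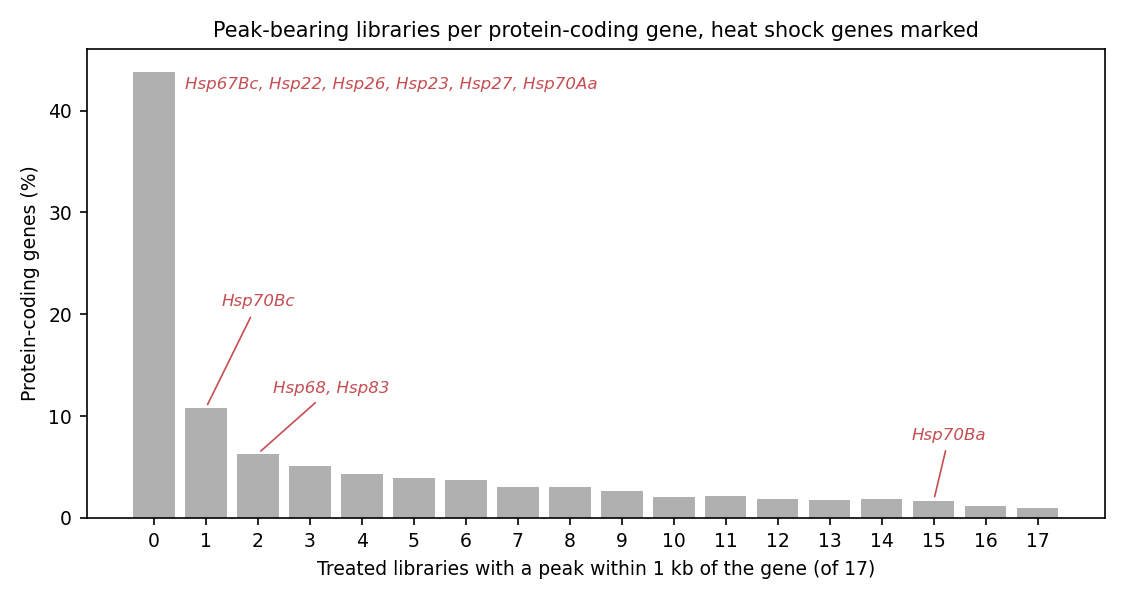
Bars give the percentage of 13946 protein-coding genes (vertical axis) that had a peak within 1 kb in a given number of the 17 treated libraries (horizontal axis); red labels mark the bars that hold the 10 heat shock genes. Of the 10, 6 lie in the bar at 0, which holds 43.8% of genes, and Hsp70Ba lies at 15.

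The small Hsp cluster on chromosome 3L carried no peak in any of the 19 libraries. Its members encode alpha-crystallin type chaperones: Hsp22 acts in mitochondria, Hsp23 and Hsp26 in the cytosol, Hsp27 mainly in the nucleus, and Hsp67Bc works with starvin in protein quality control. In dm6 the genes lie at 9371511 to 9372497 (Hsp67Bc), 9372931 to 9374964 (Hsp22), 9376418 to 9377427 (Hsp26), 9381882 to 9382765 (Hsp23) and 9384063 to 9385694 (Hsp27). The table used here gives gene spans without strand, so ends are called left and right.

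All 5 genes sat inside 1 stretch, from 9368578 to 9392334, in which no treated or control library had a peak. That stretch is 23757 bp long and holds 12 annotated genes in full, among them Hsp67Ba, another member of the cluster, and Fdx1, which encodes a ferredoxin. Stretches of this length are common in these data. Of the 20158 peak-free stretches between peaks of all 19 libraries on 2L, 2R, 3L, 3R and X, 1428 were at least as long, and they hold 41.9% of the peak-free bases. Over all chromosomes, such stretches contain 3071 protein-coding genes in full, or 22.0%.

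The nearest treated peaks lay in the flanking genes. On the left, EcoGII 6 U had a peak 2934 bp from Hsp67Bc, in CG4452, at 49.4% of its list by height, and the untreated library had one 3041 bp from Hsp67Bc that merged with it. A site at Klp67A, which encodes a mitotic kinesin, was present in 4 treated libraries (9366859 to 9367000). On the right, a site within CG4080 (9392335 to 9392523) was present in 7 treated libraries, the nearest of them (Hin1523 2 U) 6641 bp from Hsp27. Beyond it, a site at eIF4E1, which encodes the cap-binding translation factor, was present in 10 (9400914 to 9401360), with a median height percentile of 79.1. The cluster thus lay between sites that up to 10 treated libraries listed, while its own span had none, and neither control had a peak at the CG4080 or eIF4E1 sites.

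**Figure D3:**
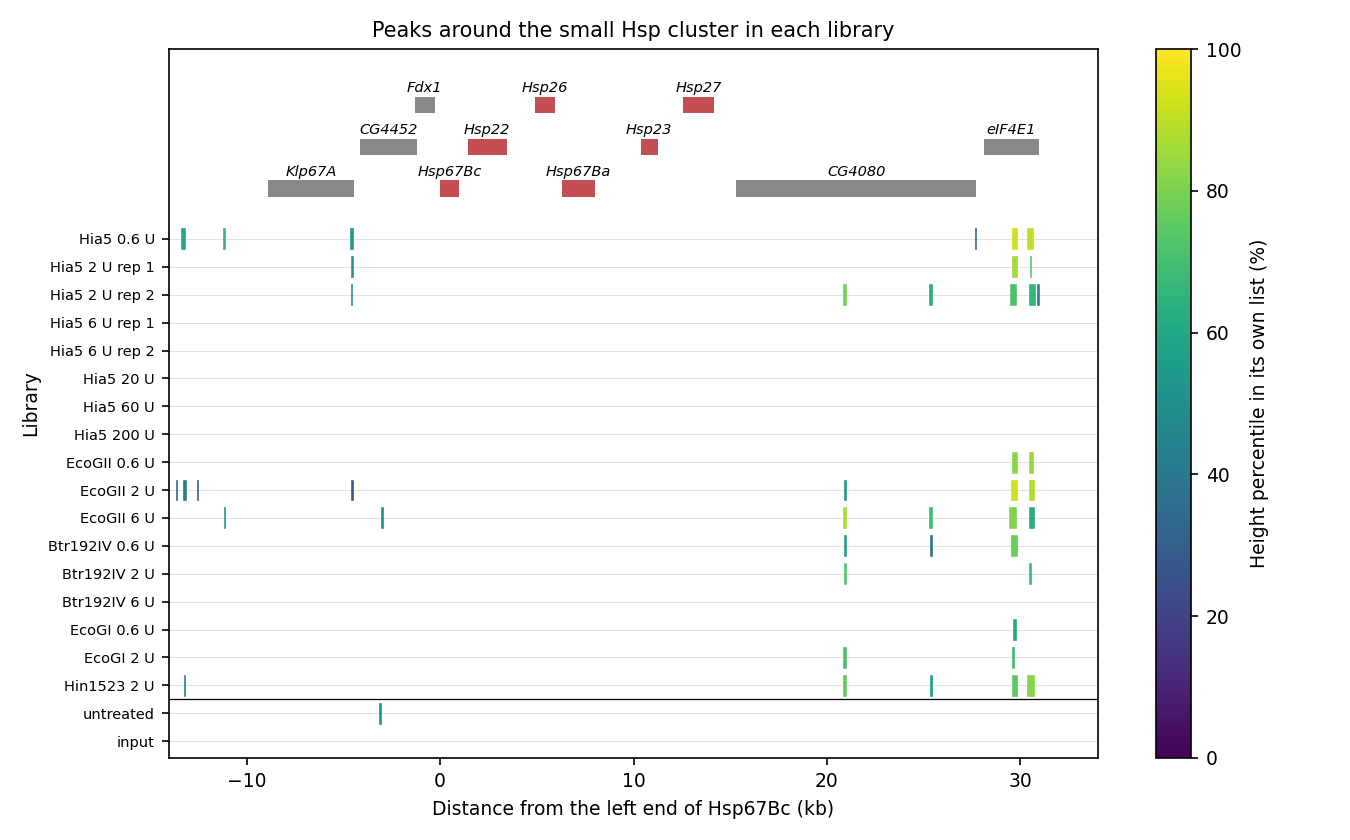
Coloured boxes are peaks in each library (rows) by distance in kb from the left end of Hsp67Bc, coloured by height percentile in their own list; bars above are genes, the Hsp genes in red. No box falls between the sites in CG4452 and CG4080, a stretch of 23757 bp, in any of the 19 rows, and 10 treated rows have a box at the first eIF4E1 site.

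Hsp83 lies on 3L from 3192969 to 3197059 and encodes the fly Hsp90, a chaperone of kinases and steroid receptors that is made without stress and raised further by heat. It had a peak in Hia5 0.6 U (3193035 to 3193166) and in EcoGII 2 U, where there were 3. The EcoGII 2 U peak at 3193043 to 3193135 overlapped the Hia5 one, just inside the left end of the gene, and it was the one position that 2 libraries shared. The others in EcoGII 2 U lay outside the span, at 3192549 to 3192800 on the left and at 3197204 to 3197320 on the right, inside CG14966. The Hia5 peak ranked 4723 of 8080 from the top, and the highest EcoGII peak ranked 5605 of 7969. These are in the lower part of long lists. EcoGII 6 U, with 13395 peaks the longest list of all, had none at Hsp83.

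Beyond the window, a site at the neighbour CG32276 and the left end of gry (3198881 to 3199180) was present in 7 treated libraries. With the window widened to 2 kb, the count at Hsp83 was 7 in place of 2, through the neighbouring sites at CG32276. The nearest untreated peak lay 7057 bp from Hsp83.

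Hsp68 lies on 3R from 24055080 to 24057310 and encodes a heat-inducible chaperone of the Hsp70 family, with a sequence that differs from the Hsp70 copies. In Hia5 0.6 U it had 1 peak, 61 bp wide, at 24057379 to 24057439, whose centre lay 99 bp past the right end of the gene. That peak ranked 4324 of 8080. In replicate 2 of Hia5 2 U there were 6 peaks, of which 5 lay inside the gene, and all 6 lay in a dense run (at least 4 other peaks of the same library within 2.5 kb to either side). Their ranks were 5889 to 6028 of 6161, so they were among the lowest of the list, and replicate 1 of the same dose had no peak there. Listed peaks can overlap, and here the peak at 24055441 to 24055600 lay wholly within that at 24055375 to 24055996. The 2 libraries had no position in common at Hsp68. With peaks in dense runs left out, a setting chosen after seeing the data, Hsp68 had a peak in 1 treated library. The count was also 1 without replicate 2 of Hia5 2 U.

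The Hsp70 genes encode the main heat-inducible chaperone of the fly and sit in 2 groups on 3R, Hsp70Aa and Hsp70Ab in one, and Hsp70Ba, Hsp70Bbb, Hsp70Bb and Hsp70Bc in the other. The copies are nearly identical, so a read may match several of them, and the sources used here do not say how the authors placed such reads. A value at 1 copy may therefore hold reads of another, and a copy with no peak is uncertain for the same reason.

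Hsp70Aa (11954163 to 11956544) had no peak in any library. It lies with Hsp70Ab in a stretch of 12316 bp without a peak in any of the 19 libraries, from 11950732 to 11963047, and 3340 of the 20158 peak-free stretches were at least as long, together holding 67.8% of the peak-free bases. On its right that stretch ended at a site beside aurA, which encodes the mitotic kinase Aurora A, present in 8 treated libraries (11963048 to 11963280).

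Hsp70Bc (12509076 to 12511461) had 2 peaks in EcoGII 6 U and none elsewhere. The peak inside the gene, at 12511261 to 12511328, ranked 13309 of 13395, and the one at 12511601 to 12511860, inside the neighbour Octbeta3R, ranked 12767. Both were at the bottom of the longest list, at 0.649% and 4.70% by height. Of the other copies, Hsp70Bb had a peak in 1 treated library, and Hsp70Bbb and Hsp70Ab had none.

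Hsp70Ba (12465453 to 12467776) had a peak in more treated libraries than any other copy. A peak at its right end was present in 15 of 17 treated libraries, in each of the 5 enzymes, and in neither control. The 15 peaks together span 12467761 to 12468040, a site of 280 bp, and every one of them contains the 20 bases from 12467881 to 12467900. In 13 of the 15 libraries the peak started past the gene's end, and in Hia5 20 U and 200 U it reached back across it. The peak centres lay between 68.5 and 164.5 bp past the right end, with a median of 134.5 bp, and widths ran from 46 to 260 bp, with a median of 220 bp. No library had a peak wholly inside the span of Hsp70Ba, and with the span alone as the window the count was 2 treated libraries. The nearest untreated peak was 9565 bp away.

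**Figure D4:**
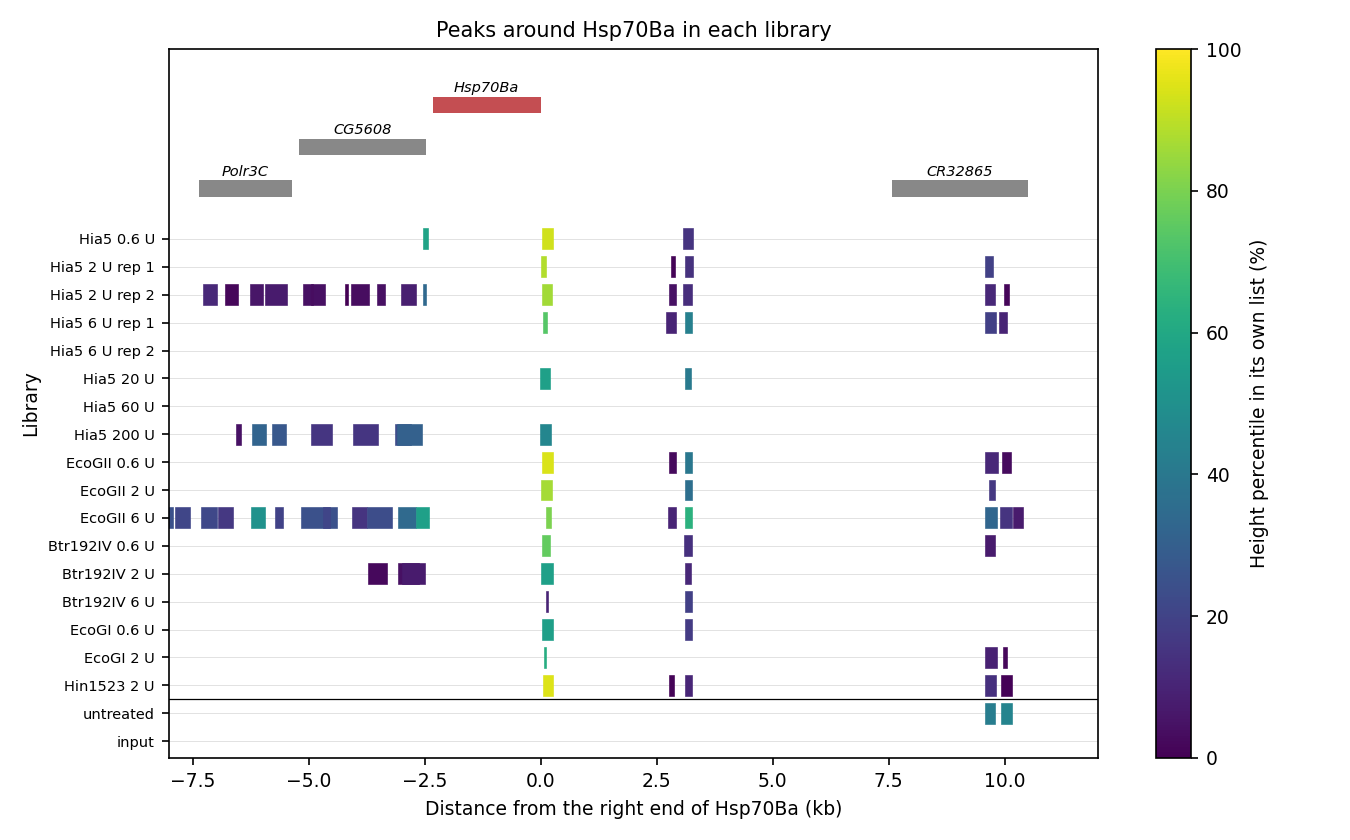
Coloured boxes are peaks in each library (rows) by distance in kb from the right end of Hsp70Ba, coloured by height percentile in their own list; bars above are genes, Hsp70Ba in red and CR32865 the alpha-gamma element lncRNA. A column of boxes stands just past 0 kb in 15 treated rows and another about 3 kb further in 13, and the untreated row has boxes only at CR32865.

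Across the Hia5 doses the right-end peak had its highest height percentiles in the lists of the lowest doses. At 0.6 U it ranked 582 of 8080 from the top, a height percentile of 92.8. At 2 U it ranked 666 of 5680 in replicate 1 and 860 of 6161 in replicate 2, with percentiles of 88.3 and 86.1. At 6 U replicate 1 had it at rank 754 of 2856, a percentile of 73.6, and replicate 2 had no peak. At 20 U the rank was 1085 of 2494 and the percentile 56.5, at 60 U there was no peak, and at 200 U the rank was 2190 of 4054 and the percentile 46.0. The replicates thus differed in the presence of the peak at 6 U, and the absence at 60 U rests on 1 library.

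In EcoGII the peak ranked 391 of 6772 at 0.6 U, 1062 of 7969 at 2 U and 2618 of 13395 at 6 U, with percentiles of 94.2, 86.7 and 80.5. In Btr192IV it ranked 882 of 3692, 1356 of 3098 and 1282 of 1425, with percentiles of 76.1, 56.3 and 10.1. The percentile was therefore lower at each higher dose of both enzymes, but the rank was so only in EcoGII. In EcoGI it ranked 1284 of 2916 at 0.6 U and 1134 of 3012 at 2 U, the percentile at 2 U being 62.4, so here the higher dose had the better rank and the higher percentile. In Hin1523 at 2 U it ranked 285 of 5546, the best rank of the 15, at a percentile of 94.9.

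These ranks come from lists of different lengths and show no change by themselves. With every treated list cut to its 772 highest peaks, the length of the shortest, Hsp70Ba had a peak in 5 of 17 treated libraries: Hia5 0.6 U, replicate 1 of Hia5 2 U, replicate 1 of Hia5 6 U, EcoGII 0.6 U and Hin1523 2 U. No Hia5 library at 20 U or above was among them, and neither was any Btr192IV or EcoGI library.

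**Figure D5:**
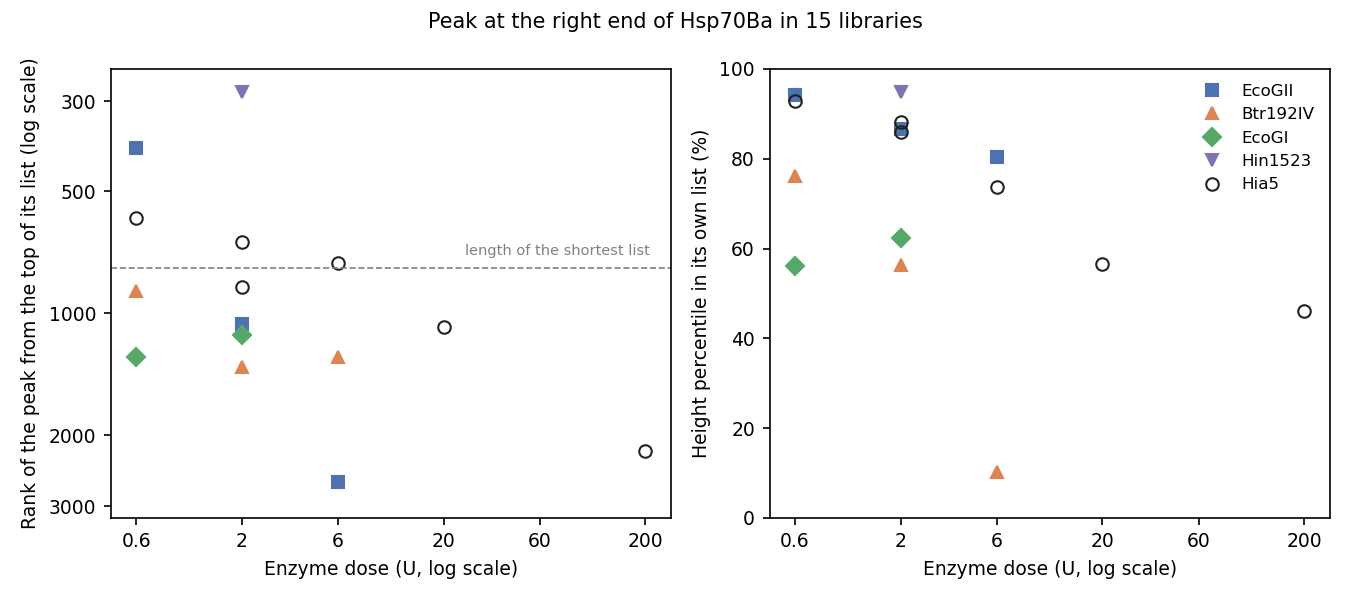
Each point is the right-end peak of Hsp70Ba in 1 library, plotted against enzyme dose in U (log scale), as its rank from the top of the list (left, log scale, best rank uppermost) and as its height percentile (right). The best rank is 285 in Hin1523 2 U, the 5 points at or above the dashed line lie within the highest 772 peaks, and Hia5 percentiles run from 92.8 at 0.6 U to 46.0 at 200 U.

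The number of libraries with a peak was compared between doses and enzymes by Fisher's exact test, two-sided, for every gene. Each side pooled libraries of different doses, which are not replicates of 1 condition. In Hia5, Hsp70Ba had a peak in 2 of 3 libraries at 20 to 200 U and in 4 of 5 at 0.6 to 6 U (Fisher's exact test, adjusted p = 1). EcoGII had it in 3 of 3 libraries and Btr192IV in 3 of 3, each against 4 of 5 Hia5 libraries at 0.6 to 6 U (Fisher's exact test, adjusted p = 1 each). Hsp68 had a peak in 0 of 3 Hia5 libraries at 20 to 200 U and in 2 of 5 at 0.6 to 6 U (Fisher's exact test, p = 0.464, adjusted p = 0.753). These designs cannot give a p below 0.0179, and after adjustment over 7566, 7725 and 6942 genes no gene passed in any of the 3 comparisons by Fisher's exact test. At an unadjusted p under 0.05 there were 237, 52 and 27 genes.

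Those genes had a peak throughout one set of libraries and nowhere in the set compared with it. In Hia5, 8 genes (0.106%) were separated in favour of 20 to 200 U and 229 (3.03%) in favour of 0.6 to 6 U. Against Hia5, 52 genes (0.673%) had a peak in all EcoGII libraries alone, with 0 the other way, and 10 (0.144%) in all Btr192IV libraries alone, with 17 (0.245%) the other way. Of the heat shock genes, Hsp68, Hsp83 and Hsp70Ba entered all 3 comparisons and Hsp70Bc that with EcoGII, and none was separated. The other members had no peak in the libraries compared, so they could not be separated. Lists of unequal length enter all 3 comparisons, and the Hia5 libraries at 0.6 to 6 U are shared by all of them.

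The library numbers in the labels fall in 2 series, and the sides of these comparisons are not balanced over them. All 3 Hia5 libraries at 20 to 200 U have lower numbers, all EcoGII and Btr192IV libraries have higher numbers, and of the Hia5 libraries at 0.6 to 6 U 2 have lower and 3 higher numbers. Within the lower numbers, a split chosen after seeing the data, 28 genes (0.544%) were separated in favour of Hia5 at 20 to 200 U and 562 (10.9%) in favour of the 2 libraries at 2 and 6 U. Within the higher numbers, where each of 0.6, 2 and 6 U has 1 library of each enzyme, 79 genes (1.07%) had a peak in all EcoGII libraries alone and 1 (0.0136%) in all Hia5 libraries alone. For Btr192IV these were 16 genes (0.244%), with 42 (0.641%) for Hia5. Within the lower numbers, only Hsp70Ba of the heat shock genes could be tested. Within the higher numbers, Hsp68, Hsp83 and Hsp70Ba could be tested for both enzymes, and Hsp70Bc for EcoGII. None of these was separated, and the other members had no peak in the libraries compared. Hsp70Ba had a peak in 3 of 3 EcoGII libraries and 3 of 3 Btr192IV libraries, against 2 of 3 Hia5 libraries of the higher numbers (Fisher's exact test, p = 1 each). In the lower numbers it had a peak in 2 of 3 Hia5 libraries at 20 to 200 U and in 2 of 2 at 2 and 6 U (Fisher's exact test, p = 1). The smallest p that these splits allow is 0.1, so they cannot pass.

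Over all treated libraries, Hsp70Ba had a peak in 4 of 5 libraries of the lower numbers and in 11 of 12 of the higher numbers. The peaks at Hsp68, Hsp83 and Hsp70Bc all came from the higher numbers, which have more libraries. The lists with these peaks held from 6161 to 13395 peaks, and the longest list of the lower numbers held 5680. Not all lists of the higher numbers were long, and that of Btr192IV 6 U held 1425 peaks.

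Left of Hsp70Ba, 5 libraries had 11 peaks in the window, between 12464041 and 12465360. All 11 overlap CG5608, and the last of them ends 93 bp short of Hsp70Ba. Those of Hia5 0.6 U and replicate 2 of Hia5 2 U included a narrow peak that starts at 12465241 in both. In replicate 2 of Hia5 2 U, in Hia5 200 U and in EcoGII 6 U, further peaks lay to the left over the rest of CG5608 and over Polr3C, which encodes a subunit of RNA polymerase III. In Btr192IV 2 U the left peaks ranked 2871 to 3027 of 3098, close to the end of the list. Left peaks of the same library overlapped in Hia5 200 U (12464641 to 12464980 and 12464681 to 12465215). So did left peaks of Btr192IV 2 U (12464701 to 12465160 and 12464781 to 12465280).

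Further to the right of Hsp70Ba, where no gene is annotated, 13 treated libraries shared a second site, from 12470841 to 12471060. It begins 3065 bp past the gene's right end, outside the window that defined the counts, and neither control had a peak there. A lower site before it, from 12470481 to 12470700, was present in 6 treated libraries at percentiles of 0.956 to 9.85. The height percentile of the site in 13 libraries had a median of 17.2 and ran from 10.8 to 63.8, against a median of 76.1 and a range of 10.1 to 94.9 at the right end of Hsp70Ba. The next sites, inside the alpha-gamma element lncRNA (a repeated sequence of the Hsp70 locus, known for heat-induced transcripts), were at 12477341 to 12477620 in 9 treated libraries and at 12477641 to 12477940 in 6, and the untreated library had a peak at both.

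The genes most like Hsp70Ba in which treated libraries had a peak were mfas on 3R and CG13954 and CG8468 on 2R. Each had a peak in the same 15 treated libraries as Hsp70Ba and none in the other two, and 6 protein-coding genes more than 10 kb away did so in all. The 3 were first by the smallest summed difference in bases under peaks, 3142, 3196 and 4733 bp over the 17 libraries.

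Of 28 further names of heat shock and chaperone genes, 26 genes were matched. Of these, 20 had a peak in a treated library and 6 had none, where 56.2% of all protein-coding genes had one, and their median was 2.5 treated libraries against 1 over all protein-coding genes. A peak in at least 10 treated libraries was found at 4 of them, and at 13.5% of all protein-coding genes. The 4 with most libraries were Hsp60B, Hsp110, Cdc37 and DnaJ-1. Hsp60B, a mitochondrial chaperonin gene needed in the male germline, had a site inside the gene in 17 of 17 treated libraries (2L, 730101 to 730414), with a median height percentile of 74.0. Hsp110, written Hsc70Cb in older tables and a nucleotide exchange factor of Hsp70, had one inside the gene in 15 (3L, 14038161 to 14038500), with a median percentile of 96.5. The right-end site of Hsp70Ba, with the same number of libraries, had a median percentile of 76.1.

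Cdc37, a kinase-specific partner of Hsp90, had a peak in 13 treated libraries at a site 412 bp outside its span (3L, 1794701 to 1794980) that also lies within 1 kb of alpha-Spec and dlt. DnaJ-1, the fly Hsp40, had a peak in 10. Its main site, in 9 libraries, lay 740 bp outside the span (3L, 5752929 to 5753376), also within 1 kb of Usp47. None of these 4 sites had an untreated or input peak. Among the constitutive chaperones, Hsc70-4 and Hsc70-5 had a peak in 8 treated libraries each, Hsc70-3 in 2 and Hsc70-1 in 1. The transcription factor gene Hsf had one in 7, and the heat-inducible lncRNA gene Hsromega in 6. Hsp67Ba, Hsp70Ab, Hsp70Bbb, Hsp60C, l(2)efl and stv had none.

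Of 15 names of genes for promoter pausing and heat shock transcription, 14 were matched, 12 had a peak in a treated library and 6 had one in at least 10, against 56.2% and 13.5% of all protein-coding genes. Trl, which encodes GAGA factor, had a site inside the gene in 17 of 17 treated libraries (3L, 14758861 to 14759480), with a median percentile of 94.4. That site also lies within 1 kb of CG42507. Adf1, a promoter-binding factor gene, had a peak in 15, Parp1, the poly(ADP-ribose) polymerase gene, in 14, and lola, a zinc finger factor gene, in 12. The main site of Adf1, in 14 libraries, also lies within 1 kb of Dpit47. Parp1 has a long span (3R, 3461351 to 3587054), and its main site, in 13 libraries, had a median percentile of 35.9. Among the other genes of this list, Nelf-A and CycT had a peak in 10 each and Nelf-E, Spt5 and Cdk9 in 2 each. TH1, a further NELF subunit gene, and spt4 had none. No control peak lay at the main sites of Trl, Adf1, Parp1 and lola, while the untreated library had a peak elsewhere in the window of Parp1.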

How the data were processed

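For each library the authors deposited a peak list (FDR of 5% per the file names) with chromosome, start, end and a peak height in their own signal. The scale of that signal is not stated, so heights only ranked peaks within a list. The submitters' processing notes name the builds dm6 and GRCh38 and the tools SAMtools 1.2 and BWA 0.7.12; the peak caller is not given in the sources used here. Starts were turned to count from 1. Gene spans came from a RefSeq table of the same release 6 assembly, without strand or sequence, so motifs and promoters were not analysed here.

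Presence per gene was compared by Fisher's exact test (SciPy 1.17.1), adjusted by Benjamini-Hochberg over all genes with a peak in at least 1 and not all of the libraries compared. The counting was tested on simulated data. Alternatives changed the window (0, 500 bp, 2 kb), the overlap, the height threshold, list length, control peaks, shared windows, dense runs, library number series (inferred from the labels) and replicates. The genes named were all 10 members, the 4 genes of each further list with a peak in the most treated libraries, and the 3 genes most like a member with at least 10 libraries; others were named after their values were seen. The members and lists were chosen with earlier results of these data known.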

Additional observations from a re-analysis of the deposited data

How the results depend on the processing

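The number of the 10 heat shock genes with a peak in a treated library was 4, and it was 1 (Hsp70Ba) both among peaks above the median height of each list and in lists of equal length. It was 4 in each fit that left out 1 replicate of Hia5 2 U or 6 U. In the 3 Fisher comparisons 0 genes passed under every alternative and without any 1 library (0 to 0), but a p of at least 0.0179 before adjustment over all genes tested all but fixes that 0, so its constancy says nothing about stability. Over the 4 genes with a peak, 39 of 52 recounts stayed within 1.5 times the count given and 13 did not. Hsp70Ba had a peak in 2 treated libraries within the gene span alone and in 5 in lists of equal length. Hsp83 had 7 with a window of 2 kb, and Hsp70Bc had 2. Hsp68, Hsp83 and Hsp70Bc had 0 both among peaks above the median height and in lists of equal length, and Hsp68 had 1 within the gene span alone. The 5 genes of the small Hsp cluster and Hsp70Aa had 0 under every alternative, most of which can only remove peaks. Counts of the 10 genes per library moved in 36 of 153 recounts. No paired analysis was possible because only Hia5 2 U and 6 U share replicate numbers, and both stand on the same side of each comparison. The comparison at matched doses within 1 series of library numbers is given with the Fisher tests, which did not pair the libraries by dose. Depth is unknown and limits what a missing peak can show.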

Other observations

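Among the further heat shock and chaperone genes, Hsp60A, the mitochondrial chaperonin gene, had a peak in 1 treated library and stv, which encodes the co-chaperone starvin, in none. Of the 26 matched genes of that list, these were the 2 with a peak in the untreated library, where 5.74% of all protein-coding genes had one. Of the paralogs of Hsp60A, Hsp60D had a peak in 1 treated library, Hsp60C in none and Hsp60B in 17 of 17.

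Several other chaperone genes of that list lay between these extremes. The J-domain protein genes mrj and Droj2 had a peak in 9 and 4 treated libraries. Gp93, which encodes the Hsp90 of the endoplasmic reticulum, had one in 3, and Trap1, which encodes the mitochondrial Hsp90, in 2. The Hsp90 co-chaperone gene p23 had one in 8. Neither control had a peak at these 5 genes, where 5.74% (untreated) and 0.0430% (input) of all protein-coding genes had one.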
